A study of Mus musculus with 27 samples.

Results

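The cell cycle and DNA replication genes are 58 genes taken by symbol from the table of liver gene counts, of 23191 named genes in that table, and each was found on a single row. They were divided by role into 16 replication genes, 29 mitotic genes and 13 control genes, the last being G1 cyclins with Cdk2 and p21, transcription factors, the checkpoint kinase gene Chek1, the histone chaperone gene Nasp and Stmn1. Cell proliferation is among the gene programs that the study itself drew from these same livers, so the choice of genes is not independent evidence of a direction. RNA was measured by mRNA sequencing of liver from 27 male C57BL/6J mice. The groups were littermate controls on chow (n = 7), HGFAC-KO mice on chow (n = 6), littermate controls on the HF/HS diet, rich in fat and sucrose (n = 7) and HGFAC-KO mice on the HF/HS diet (n = 7). The mice were 8 weeks old at the start and spent 4 weeks on the diet. HGFAC is a liver-secreted protease that activates hepatocyte growth factor, and all HGFAC-KO mice lack it in the whole body through a CRISPR deletion from the middle of exon 1 through exon 2. Mice are named here by group and replicate number.

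In dividing cells the MCM2-7 ring is loaded at replication origins in G1, opened by helicase partners in S phase, and followed by the polymerases, the PCNA clamp and the enzymes that make deoxynucleotides. Cyclin B and Cdk1, the Aurora and Polo kinases, kinesins and the centralspindlin complex then carry the cell through mitosis and cytokinesis. Most hepatocytes of an adult mouse are quiescent, and in liver tissue the transcripts of these genes can come from any cell type that cycles there, including resident macrophages, lymphocytes, endothelial cells and erythroid precursors. Hepatocytes also become polyploid by replicating DNA without dividing.

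E2F sites are known for genes of the G1/S transition, and the cell cycle genes homology region (CHR) with CCAAT boxes for genes of G2 and mitosis. RefSeq promoter windows (GRCm38.p6) from 250 bases before to 50 bases after the annotated start were at hand for 46 of the 58 genes, in 50 windows. The CHR word TTTGAA, on either strand, was in 22 of 27 windows of mitotic genes (81.5%), in 1 of 14 windows of replication genes (7.14%) and in 17.9% of all 32851 promoter windows. Within 50 bases of the start it was in 21 of the 27 mitotic windows (77.8%) and in 4.94% of all windows. An E2F word (TTTCCCGC, TTTCGCGC, TTTGCCGC or TTTGGCGC, either strand) was in 8 of 14 replication windows (57.1%), in 2 of 27 mitotic windows (7.41%) and in 2.26% of all windows. CCAAT was common everywhere, in 10 of 14 replication windows, 23 of 27 mitotic windows and 37.4% of all windows. No binding was measured here, and a match is only a description of the letters.

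The 4 replication and 4 mitotic genes with the smallest p-values between HGFAC-KO and control mice on chow (values further on) show how the words lie near the start. Each sequence is 190 bases, 160 before and 30 after the RefSeq start, 5′ to 3′ on the gene's strand. Capitals mark matches to an E2F word, TTTGAA or CCAAT on either strand, and overlapping matches run together.
Mcm5, chr8:75109349-75109538, plus strand: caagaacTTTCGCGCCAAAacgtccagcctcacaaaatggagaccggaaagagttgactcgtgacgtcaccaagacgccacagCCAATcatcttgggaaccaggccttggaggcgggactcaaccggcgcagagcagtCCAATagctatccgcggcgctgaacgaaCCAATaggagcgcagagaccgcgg
Mcm6, chr1:128359676-128359865, minus strand: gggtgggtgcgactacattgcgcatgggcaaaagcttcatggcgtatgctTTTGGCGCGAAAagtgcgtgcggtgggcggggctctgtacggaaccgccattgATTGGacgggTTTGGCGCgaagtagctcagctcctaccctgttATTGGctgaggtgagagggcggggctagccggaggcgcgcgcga
Pola1, chrX:93632126-93632315, minus strand: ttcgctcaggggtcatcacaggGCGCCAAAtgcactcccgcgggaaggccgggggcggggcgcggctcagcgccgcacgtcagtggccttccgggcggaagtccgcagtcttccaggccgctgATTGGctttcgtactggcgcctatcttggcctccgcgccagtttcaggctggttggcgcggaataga
Mcm2, chr6:88898751-88898940, minus strand: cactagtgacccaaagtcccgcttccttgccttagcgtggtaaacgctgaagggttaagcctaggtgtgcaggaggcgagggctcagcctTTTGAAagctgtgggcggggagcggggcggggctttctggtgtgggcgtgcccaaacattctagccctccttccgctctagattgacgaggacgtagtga
Aspm, chr1:139454613-139454802, plus strand: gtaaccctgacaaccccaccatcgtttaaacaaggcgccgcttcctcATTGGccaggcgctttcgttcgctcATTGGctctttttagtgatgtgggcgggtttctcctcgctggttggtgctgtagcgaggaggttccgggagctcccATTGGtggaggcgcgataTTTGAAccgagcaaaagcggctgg
Kif23, chr9:61946770-61946959, minus strand: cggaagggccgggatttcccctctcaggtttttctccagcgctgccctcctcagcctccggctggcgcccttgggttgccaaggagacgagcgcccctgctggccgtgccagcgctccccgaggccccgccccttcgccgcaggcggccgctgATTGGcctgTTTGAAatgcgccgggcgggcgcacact
Cenpf, chr1:189688057-189688246, minus strand: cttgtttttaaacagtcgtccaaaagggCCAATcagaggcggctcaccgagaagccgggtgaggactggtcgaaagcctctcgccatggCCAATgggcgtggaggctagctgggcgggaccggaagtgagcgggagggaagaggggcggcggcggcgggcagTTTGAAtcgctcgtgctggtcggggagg
Racgap1, chr15:99651627-99651816, minus strand: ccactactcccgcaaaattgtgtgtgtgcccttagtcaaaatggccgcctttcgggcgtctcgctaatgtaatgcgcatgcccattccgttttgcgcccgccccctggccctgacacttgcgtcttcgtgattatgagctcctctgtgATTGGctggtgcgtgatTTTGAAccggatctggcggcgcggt

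Mcm5, Mcm6 and Pola1 hold E2F words and no CHR word in these stretches. Mcm2, a replication gene, holds a CHR word and neither an E2F word nor CCAAT. Aspm, Kif23, Cenpf and Racgap1 each hold a CHR word in the last bases shown, and CCAAT upstream of it.

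**Figure D1:**
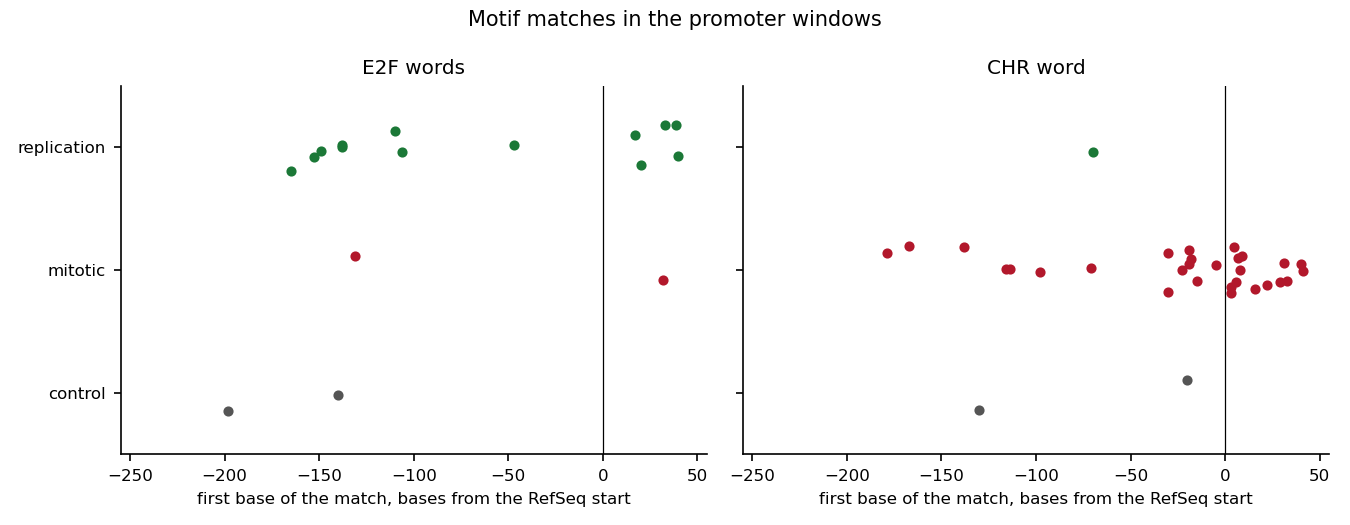
Position of each E2F word (left) and CHR word (right) in the RefSeq promoter windows, in bases from the annotated start, with 1 point per match and the replication, mitotic and control genes on separate levels. The CHR matches of mitotic genes gather at the start (21 of 27 windows within 50 bases), and E2F matches are mostly in replication genes (8 of 14 windows).

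Total counts per library were 36056177 to 57298657. Hgfac itself (chr5:35041509-35048461) was at 201 ± 12.8 CPM (counts scaled to a fixed library size; mean ± SD) in control chow mice, 75.2 ± 8.27 in HGFAC-KO chow mice, 271 ± 15.5 in control HF/HS mice and 91.8 ± 7.94 in HGFAC-KO HF/HS mice, with no overlap between genotypes. Hepatocyte markers were abundant in every mouse, at a summed 79634 to 117960 CPM, so the tissue label holds. Each library is 1 mouse, so p-values weigh a group difference against the spread between these mice. Fold changes, standard errors (SE) and adjusted p-values are from edgeR's quasi-likelihood test fitted on all genes with Benjamini-Hochberg adjustment over all genes tested, and a gene is called at an adjusted p under 0.05.

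The genes were expressed at low levels. Averaged over the 27 mice, 31 of the 58 reached 1 CPM, among them 15 of the 16 replication genes and 6 of the 29 mitotic genes (Ccna2, Aurka, Mki67, Top2a, Ncapg and Kif20a). Per length, the highest were E2f4, a repressor E2F (12.65 CPM per kb of exon), Ccnd1, the G1 cyclin D1 (11.18 CPM per kb), and Pcna (6.48 CPM per kb). The p21 gene Cdkn1a (3.80 CPM per kb), the atypical repressor gene E2f8 (2.73 CPM per kb) and Mcm7 (2.72 CPM per kb) followed. The lowest were the cytokinesis scaffold gene Iqgap3 (0.0181 CPM per kb), the kinetochore gene Cenpf (0.0189 CPM per kb) and the mitotic checkpoint kinase genes Ttk (0.0208 CPM per kb) and Bub1 (0.0265 CPM per kb). Some of these levels are uncertain, because exons of a gene on the other strand cover part of the gene and the strand setting of the counting is not given in the sources used here. These shared stretches are 29.3% of Kif20a exons (with Cdc23), 23.4% of Ccnd1 (LTO1), 17.4% of Ccne2 (Ints8), 13.4% of Ncapg (Lcorl), 12.5% of Ccna2 (Exosc9), 11.2% of E2f8 (Gm2788) and 11.1% of Prc1 (Rccd1). In bulk liver, fewer cycling cells and less of the RNA per cell cannot be told apart.

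Because single mitotic genes had few counts, a score was made per mouse as the mean log2 CPM of the genes in a set, minus the mean over control chow mice. The replication score ran from -0.18 to 0.25 (median -0.04) in control chow mice, from -0.40 to -0.03 (median -0.18) in HGFAC-KO chow mice, from -0.33 to 0.06 (median -0.05) in control HF/HS mice and from -0.27 to -0.10 (median -0.22) in HGFAC-KO HF/HS mice. All 4 groups overlapped, and all 7 HGFAC-KO HF/HS mice lay below the median of the control HF/HS mice. The mitotic score ran from -0.49 to 0.25 (median 0.08) in control chow mice, from -0.86 to 0.36 (median -0.49) in HGFAC-KO chow mice, from -0.77 to -0.16 (median -0.44) in control HF/HS mice and from -0.45 to 0.63 (median -0.36) in HGFAC-KO HF/HS mice. The groups overlapped here too, while all 7 control HF/HS mice lay below the control chow median.

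**Figure D2:**
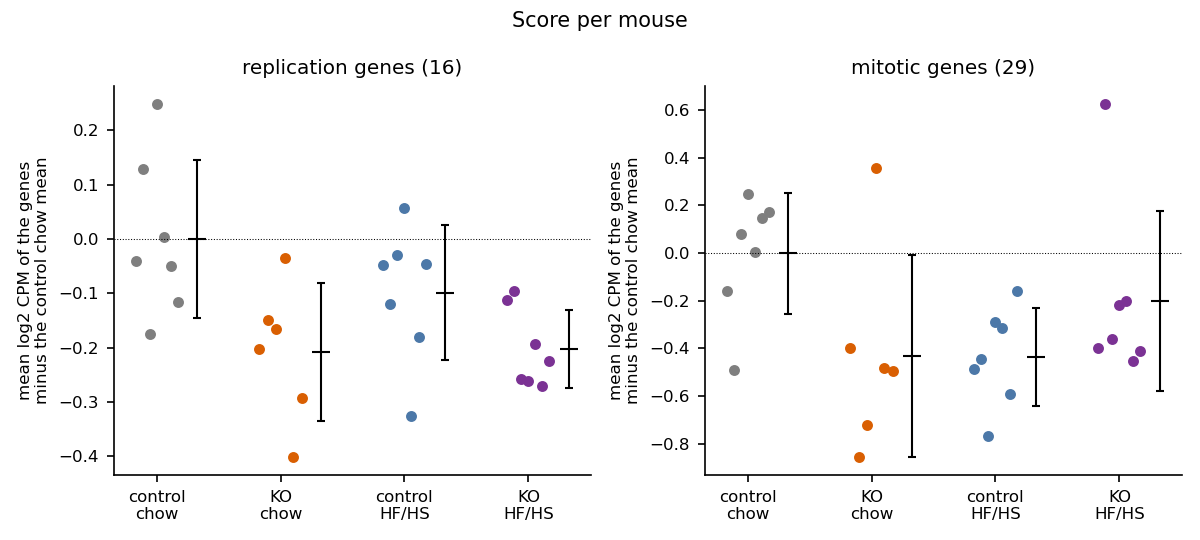
Replication score (left, 16 genes) and mitotic score (right, 29 genes) of each mouse by group, as mean log2 CPM minus the control chow mean, with 1 point per mouse and the group mean ± SD beside it. A single mouse stands high in each HGFAC-KO group of the mitotic panel, at 0.36 on chow and 0.63 on HF/HS.

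Those were HGFAC-KO chow mouse 4 and HGFAC-KO HF/HS mouse 2. The HF/HS mouse scored 0.63 where the other 6 of its group scored -0.45 to -0.20, and was the highest of its group for 24 of the 29 mitotic genes and of all 27 mice for 13. Its summed Kupffer cell markers, at 406 CPM, were also the highest of its group (others 258 to 375), as were pan-leukocyte markers at 128 CPM (others 106 to 128). Its sums of T and NK cell, B and plasma cell and neutrophil markers were the highest of the group too. The chow mouse scored 0.36 against -0.86 to -0.40 in the others, was the highest for 21 of the 29 genes, and had the highest Kupffer cell marker sum of its group, at 283 CPM against 186 to 247. Its pan-leukocyte marker sum was the highest of the group as well (130 CPM, others 111 to 119), and its stellate cell marker sum of 146 CPM was the lowest of all 27 mice. In the opposite direction, control chow mouse 2 was the lowest of its group for 16 mitotic genes, and its erythroid marker sum of 415 CPM was the highest of the group. Control chow mouse 4 held the highest level of all 27 mice for 7 of the 16 replication genes. The part of these cell types in the scores was not tested, and the medians and scores of the mitotic genes are also given without the 2 HGFAC-KO mice.

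**Figure D3:**
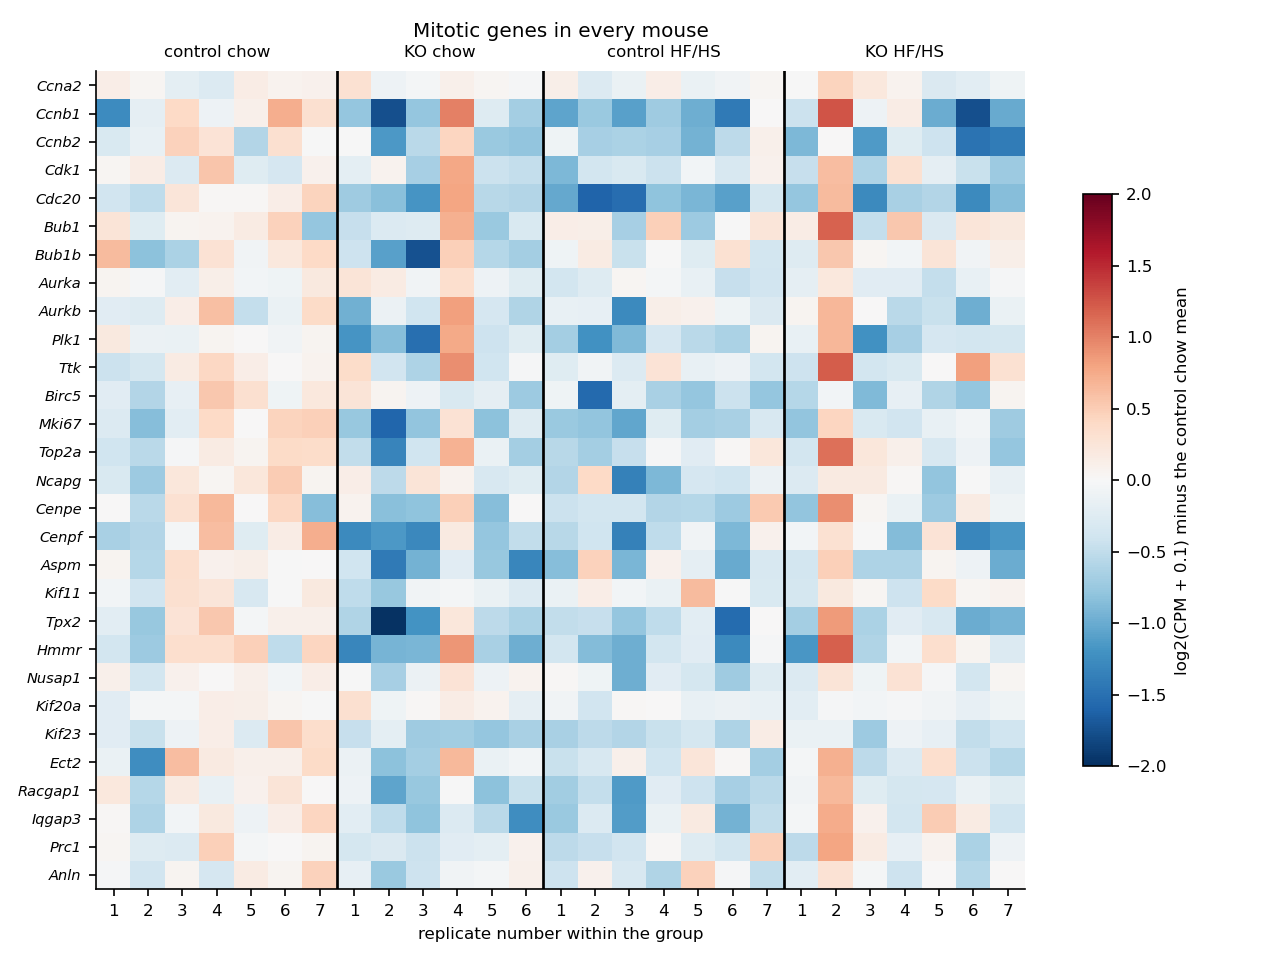
The 29 mitotic genes (rows) in each of the 27 mice (columns, by group and replicate number), as log2(CPM + 0.1) minus the control chow mean of the gene, with colours cut at 2 in either direction. HGFAC-KO HF/HS mouse 2 and HGFAC-KO chow mouse 4 are red over most genes, while most control HF/HS mice and the other HGFAC-KO chow mice are mainly blue.

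The first question was what loss of HGFAC did on chow. No gene of the set was called. Of 53 tested, 0 passed by edgeR, against 0.00737% of all 13571 genes tested, and the smallest adjusted p was 0.801. At an unadjusted p under 0.05 there were 16 (2 higher and 14 lower in HGFAC-KO mice), 30.2% of those tested against 5.98% of all genes (3.39% higher and 2.59% lower). Without HGFAC-KO chow mouse 4 there were 25, and without control chow mouse 4 there were 11. limma voom called 0, and DESeq2 gave none of the 53 an adjusted p, as its independent filtering kept 1993 genes. The median log2 fold change of the 53 was -0.23, and that of all genes tested was 0.0031.

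On chow, the genes that license origins and unwind DNA all lay on the same side. All 9 of them had a lower mean in HGFAC-KO mice (median -0.35 on the log2 scale), and this included the 6 subunits of the MCM2-7 ring, the replicative helicase. The largest was Mcm5, with a lowest, median and highest level of 1.19, 2.20 and 2.69 CPM in controls and 1.07, 1.44 and 1.68 CPM in HGFAC-KO mice (a log2 difference of -0.55 ± 0.18 SE, adjusted p = 0.801 by edgeR). All 6 HGFAC-KO mice were below the control median, yet the groups overlapped, and the exact two-sided permutation test gave p = 0.0227. Mcm6 was at 3.85, 4.38 and 5.87 CPM in controls and 2.48, 3.41 and 4.41 CPM in HGFAC-KO mice (-0.42 ± 0.14, adjusted p = 0.801 by edgeR). There, 4 of the 6 HGFAC-KO mice were below every control. The log2 fold changes of the remaining subunits were -0.40 ± 0.16 for Mcm2, -0.37 ± 0.15 for Mcm3, -0.35 ± 0.15 for Mcm4 and -0.14 ± 0.058 for Mcm7, each with an adjusted p of 0.801 by edgeR. Every subunit kept its sign under all alternative settings and with each mouse left out. The size moved more, with Mcm3 from -0.44 to -0.24 and Mcm4 from -0.41 to -0.23 when 1 mouse was left out. For the 9 genes together, unadjusted calls numbered 6, against 3 without control chow mouse 2 or 4 and 2 without HGFAC-KO chow mouse 5, and the median was -0.25 without control chow mouse 4.

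Over all 16 replication genes, 15 had a lower mean in HGFAC-KO chow mice (11 to 16 with 1 mouse left out), with a median of -0.18. Pola1, the catalytic subunit of the priming polymerase, was at -0.33 ± 0.13. Pcna, the sliding clamp, was level, at 14.8, 16.2 and 17.7 CPM in controls and 14.01, 16.02 and 18.8 CPM in HGFAC-KO mice (-0.01 ± 0.071). Rrm1, a subunit of ribonucleotide reductase, was at -0.15 ± 0.075. The mean replication score was lower by 0.21 in HGFAC-KO mice (0.17 to 0.24 with 1 mouse left out).

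Among the mitotic genes on chow, 21 of 24 tested had a lower mean in HGFAC-KO mice, with a median of -0.33 and 6 unadjusted calls. Aspm, a spindle pole protein, had the smallest p of the set, at 0.246, 0.436 and 0.549 CPM in controls and 0.0929, 0.187 and 0.342 CPM in HGFAC-KO mice (-1.08 ± 0.28, adjusted p = 0.801 by edgeR, exact permutation p = 0.00233). All 6 HGFAC-KO mice were below the control median, and the groups overlapped at these low levels. Kif23, the centralspindlin kinesin, was at 0.393, 0.526 and 0.889 CPM in controls and 0.296, 0.323 and 0.488 CPM in HGFAC-KO mice (-0.73 ± 0.22), where 5 of the 6 were below every control. Cenpf, a kinetochore protein, was at -1.07 ± 0.40, and Racgap1, the partner of Kif23 in centralspindlin, at -0.60 ± 0.23. The proliferation antigen gene Mki67 was at -0.65 ± 0.29, Top2a, the topoisomerase that untangles sister chromatids, at -0.32 ± 0.29 and Cdk1 at -0.12 ± 0.26. Without HGFAC-KO chow mouse 4 the mean was lower for 22 of 25, the median was -0.65 and the unadjusted calls among mitotic genes numbered 13, with Mki67 at -0.91, Top2a at -0.65 and Cdk1 at -0.39, and without control chow mouse 4 they numbered 4. At the other end of leaving out 1 mouse, Mki67 was at -0.50, Top2a at -0.16 and Cdk1 at 0.0094. Without HGFAC the mean mitotic score was lower by 0.43 (0.35 to 0.59 with 1 mouse left out). The score was lower by 0.17 over the 6 genes of at least 1 CPM and by 0.23 as the log2 of the summed CPM. In both of these measures Ccna2, Ncapg and Kif20a, of uncertain level, weigh more than they do in the mean mitotic score. Kupffer cell markers moved with it, as all 10 had lower means in HGFAC-KO mice with 0 called by edgeR and 1 at an unadjusted p under 0.05, and their sum ran from 193 to 399 CPM in controls and 186 to 283 CPM in HGFAC-KO mice. Pan-leukocyte markers had lower means for 6 of 6 (median -0.18, 1 unadjusted call) and endothelial markers for 7 of 8 (median -0.21, 1 unadjusted call). The 3 tested of 10 neutrophil markers had higher means (median 0.65, 1 unadjusted call), and their summed level ran from 0.838 to 1.83 CPM in controls and 0.905 to 2.93 CPM in HGFAC-KO mice. Of the neutrophil markers, Ly6g, Ctsg and Mpo were at 0 in 25, 24 and 19 of the 27 mice, while S100a8, S100a9, Elane and Prtn3 were at 0 in none. The part of these cell types in the difference was not tested.

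The control genes were split, with 6 of 13 higher on chow. E2f4 was at 27.2, 29.1 and 31.3 CPM in controls and 30.1, 32.3 and 33.8 CPM in HGFAC-KO mice (0.14 ± 0.046, adjusted p = 0.801 by edgeR, exact permutation p = 0.00524). Ccnd1 was at 0.23 ± 0.095 and Cdkn1a at 0.39 ± 0.32, the latter at 0.05 without HGFAC-KO chow mouse 1. Foxm1, the transcription factor of the G2/M program, was at -0.64 ± 0.25.

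**Figure D4:**
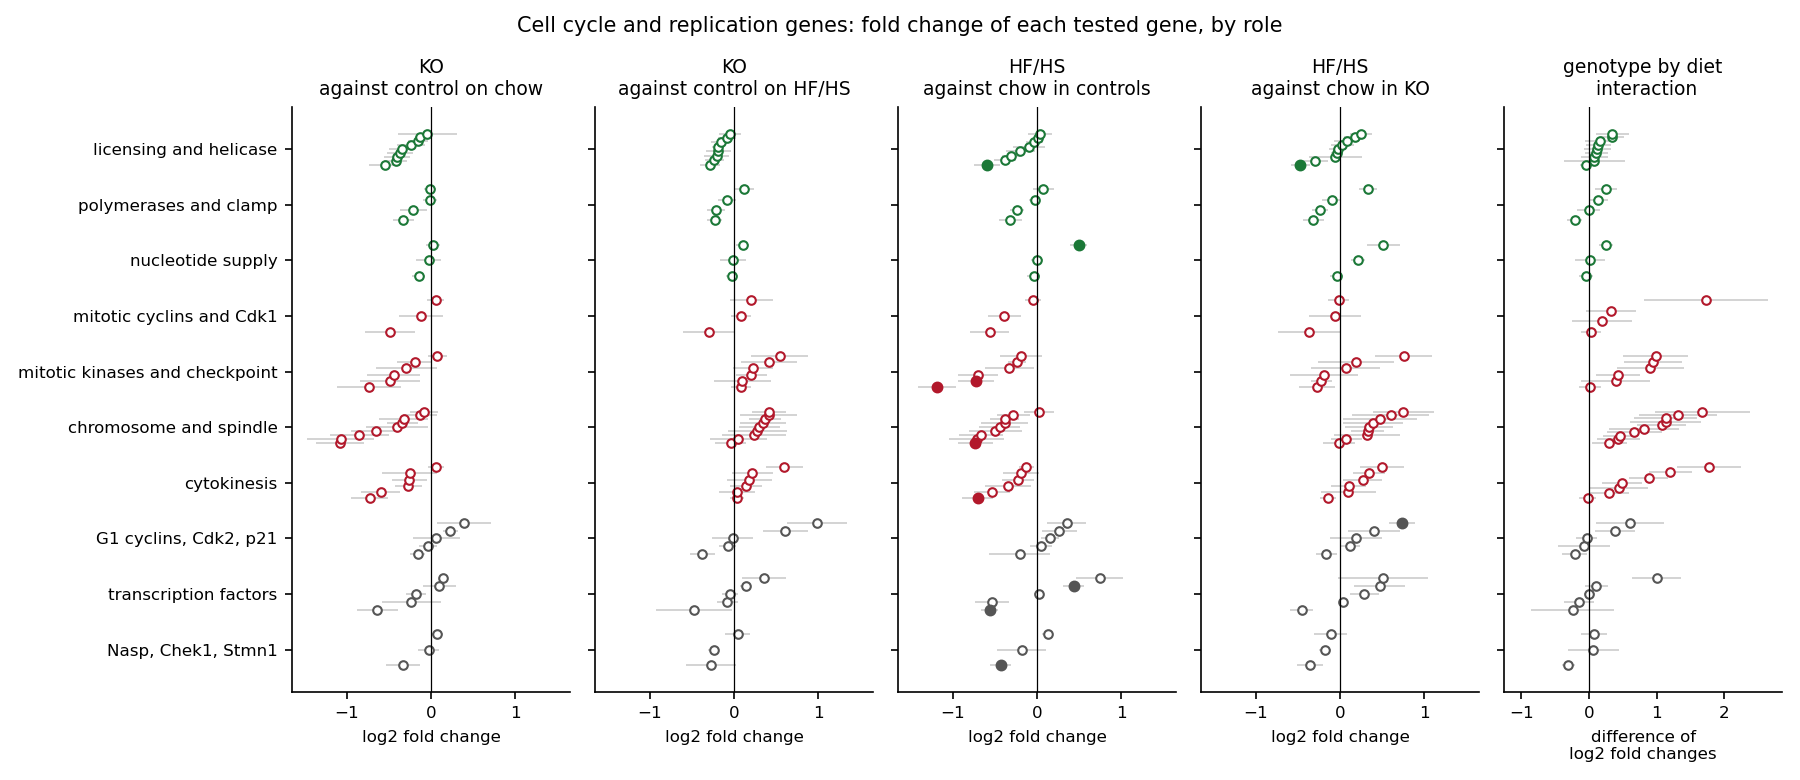
Log2 fold change ± SE of each tested gene by role, with 1 panel per comparison and, in the last panel, the difference of the genotype effects between diets. Filled points are genes with an adjusted p under 0.05, which are found in the 2 diet panels, and the points of the 9 licensing and helicase genes lie below 0 in the chow genotype panel.

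On the HF/HS diet, loss of HGFAC was again without a called gene in the set. By edgeR 0 of 52 tested passed, against 0.0148% of all 13544 genes, and the smallest adjusted p was 0.34. DESeq2 and limma voom also called 0. The unadjusted calls were 9 (4 higher and 5 lower), 17.3% of those tested against 9.64% of all genes (4.94% higher and 4.7% lower). Replication and mitotic genes lay on opposite sides, so the median over the set was 0.05. Its sign turned without HGFAC-KO HF/HS mouse 2 (-0.02) and with 10 counts required in every library (-0.02), and it was 0.11 without control HF/HS mouse 4.

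Of the replication genes, 13 of 15 had a lower mean in HGFAC-KO HF/HS mice, with a median of -0.16, and all 8 tested licensing and helicase genes did, with a median of -0.19. Mcm7 was at 11.7, 12.6 and 14.003 CPM in controls and 9.78, 11.2 and 12.9 CPM in HGFAC-KO mice (-0.19 ± 0.070, adjusted p = 0.448 by edgeR). Pcna was at 13.96, 15.99 and 17.8 CPM in controls and 11.2, 13.9 and 16.9 CPM in HGFAC-KO mice (-0.23 ± 0.089, adjusted p = 0.452 by edgeR). For each gene, 4 of the 7 HGFAC-KO mice were below every control and the groups overlapped. Mcm2 was at -0.29 ± 0.11, Mcm3 at -0.23 ± 0.11, Mcm4 at -0.19 ± 0.15, Mcm5 at -0.21 ± 0.15 and Mcm6 at -0.09 ± 0.11, and the sign of all 6 subunits held under every alternative. Leaving out 1 mouse brought Mcm4 to -0.10 (control HF/HS mouse 7) or -0.12 (control HF/HS mouse 1), Mcm5 to -0.12 (control HF/HS mouse 4) and Mcm6 to between -0.16 and -0.04. The replication median was -0.10 without control HF/HS mouse 7. The mean replication score was lower by 0.10 (0.08 to 0.14 with 1 mouse left out), and by 0.19 as the median of the genes.

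Mitotic genes had the opposite sign on this diet, with a higher mean in HGFAC-KO mice for 22 of 24, a median of 0.21 and 1 unadjusted call (1 to 4 with 1 mouse left out, with 4 without control HF/HS mouse 2). That call was Racgap1, at 0.233, 0.407 and 0.528 CPM in controls and 0.473, 0.522 and 1.05 CPM in HGFAC-KO mice (0.60 ± 0.22, adjusted p = 0.448 by edgeR). Mki67 was at 0.788, 1.05 and 1.45 CPM in controls and 0.959, 1.38 and 2.37 CPM in HGFAC-KO mice (0.42 ± 0.20, adjusted p = 0.519 by edgeR). HGFAC-KO HF/HS mouse 2 held the highest value for both. Without this mouse 16 of 24 mitotic genes had a higher mean, the median was 0.04, and the difference in mean mitotic score went from 0.24 to 0.10. Top2a (0.34 ± 0.27) and Cdk1 (0.21 ± 0.25) had errors near the size of the difference, and without the same mouse Mki67 was at 0.26, Top2a at 0.05 and Cdk1 at 0.0052. Beside these, pan-leukocyte markers had higher means for 5 of 6 (median 0.11) and Kupffer cell markers for 7 of 10 (median 0.05), with 0 called by edgeR and 0 at an unadjusted p under 0.05, and endothelial markers had lower means for 7 of 8 (median -0.17, 2 unadjusted calls, of which 1 was higher). Their part in the values was not tested.

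The control genes gave the smallest p on HF/HS. Nasp, the histone chaperone that supplies new chromatin, was at 11.5, 13.2 and 14.9 CPM in controls and 10.2, 10.9 and 12.3 CPM in HGFAC-KO mice (-0.24 ± 0.065, adjusted p = 0.34 by edgeR, exact permutation p = 0.00175). All 7 HGFAC-KO mice were below the control median and 5 were below every control. Cdkn1a, which encodes the Cdk inhibitor p21, was at 4.43, 6.41 and 24.2 CPM in controls and 11.8, 20.4 and 28.7 CPM in HGFAC-KO mice (0.99 ± 0.36, adjusted p = 0.448 by edgeR, exact permutation p = 0.0105). All 7 HGFAC-KO mice were above every control but control HF/HS mouse 7, and without that mouse the difference was 1.41 with an adjusted p of 0.108 by edgeR. Ccnd1 was at 22.1, 47.4 and 94.7 CPM in controls and 53.7, 83.7 and 94.97 CPM in HGFAC-KO mice (0.61 ± 0.27, adjusted p = 0.49 by edgeR), with all 7 HGFAC-KO mice above the control median. The same control mouse was the highest of its group for Ccnd1, and its Kupffer cell marker sum of 490 CPM was the highest of that group too. So were its sums of B and plasma cell markers (444 CPM, others 272 to 352) and neutrophil markers (8.41 CPM, others 1.41 to 3.31). The part of these cell types in the levels was not tested.

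More of these genes were called between the diets. In littermate controls 9 of 52 tested were called, 17.3% against 10.5% of all 13525 genes. In direction, 2 rose (background 4.93%) and 7 fell (background 5.6%). The unadjusted calls were 22 (3 higher and 19 lower), 42.3% of those tested against 25.4% of all genes (12.4% higher and 13.0% lower). The median log2 fold change of the 52 was -0.23 and that of all genes 0.0036. The count of 9 was 4 without control chow mouse 6, 5 without control HF/HS mouse 2, and 12 with DESeq2.

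Of the replication genes in controls, Mcm2 fell and Rrm2 rose on HF/HS, and both calls held in every alternative. Mcm2 (chr6:88883474-88898780) was at 3.82, 4.90 and 7.69 CPM in control chow mice and 2.86, 3.71 and 4.62 CPM in control HF/HS mice, and fell by 0.60 on the log2 scale (SE 0.15, adjusted p = 0.0191 by edgeR). All 7 HF/HS mice were below the chow median and 5 were below every chow mouse. Rrm2 (chr12:24708241-24714146), the subunit of ribonucleotide reductase that limits its activity in S phase, was at 2.49, 2.97 and 3.29 CPM on chow and 3.36, 4.16 and 5.12 CPM on HF/HS, and rose 1.41-fold (log2 fold change 0.50 ± 0.10, adjusted p = 0.00542 by edgeR). The 2 groups did not overlap, as held for 1.57% of all genes in this direction, and the exact permutation p of 0.000583 was the smallest the test can give. The other subunits of the MCM2-7 ring did not pass the test, with log2 fold changes of -0.31 ± 0.11 for Mcm6, -0.20 ± 0.18 for Mcm4, -0.10 ± 0.19 for Mcm5, 0.03 ± 0.14 for Mcm3 and 0.01 ± 0.055 for Mcm7. With 1 mouse left out, Mcm4 ran from -0.28 to -0.08, Mcm5 from -0.19 to -0.0075, Mcm3 from -0.03 to 0.16 and Mcm7 from -0.01 to 0.03. Pcna was at -0.03 ± 0.066. The mean replication score was lower by 0.10 on HF/HS (0.06 to 0.13 with 1 mouse left out).

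Of the mitotic genes in controls, 4 of 24 were called, all lower on HF/HS, and 23 of 24 had a lower mean. Cdc20 (chr4:118432901-118437352), the activator of the anaphase-promoting complex, was at 0.639, 0.968 and 1.32 CPM on chow and 0.245, 0.414 and 0.719 CPM on HF/HS, and fell by 1.19 on the log2 scale (SE 0.23, adjusted p = 0.00296 by edgeR). For Cdc20, 6 of the 7 HF/HS mice were below every chow mouse. Racgap1 (chr15:99620496-99651656) was at 0.393, 0.679 and 0.775 CPM on chow and 0.233, 0.407 and 0.528 CPM on HF/HS (-0.71 ± 0.19, adjusted p = 0.0241 by edgeR). All 7 HF/HS mice were below the chow median and the groups overlapped. Mki67 (chr7:135689784-135716361) was at 0.910, 1.73 and 2.46 CPM on chow and 0.788, 1.05 and 1.45 CPM on HF/HS (-0.73 ± 0.21, adjusted p = 0.0326 by edgeR). Plk1 (chr7:122159439-122169873), the Polo kinase of mitotic entry, was at 0.412, 0.460 and 0.540 CPM on chow and 0.143, 0.261 and 0.479 CPM on HF/HS (-0.72 ± 0.21, adjusted p = 0.0392 by edgeR). For Mki67, 1 HF/HS mouse was below every chow mouse, and for Plk1 6 were. Cdk1 (-0.39 ± 0.20) and Top2a (-0.28 ± 0.19) did not pass.

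Of these calls, Cdc20 held in every alternative in which it was tested. The call of Racgap1 was lost without control chow mouse 6 (adjusted p = 0.056 by edgeR), without control HF/HS mouse 1 (0.0514) and with the replicate number as a block (0.1). The call of Mki67 was lost without any 1 of control chow mice 4 to 7 or of control HF/HS mice 1, 2, 3, 5 and 6, with adjusted p-values of 0.0542 to 0.076, with limma voom (0.054) and in 1 fit of all 27 mice (0.0582). The call of Plk1 was lost without any 1 of control chow mice 1, 2 and 4 to 7 or of the same 5 control HF/HS mice (0.0581 to 0.0782), with no filter on low counts (0.0593), in 1 fit of all 27 mice (0.196) and with the replicate block (0.0748). The mean mitotic score was lower by 0.44 on HF/HS in controls (0.38 to 0.52 with 1 mouse left out). Erythroid markers were lower too for 6 of 7 tested, with 3 called (Hba-a2, Slc4a1 and Tfrc). Alas2 (90.4 CPM on chow and 95.9 CPM on HF/HS) was higher and Klf1 (1.92 and 1.82 CPM) slightly lower, and neither was called. The summed erythroid level was 222 to 415 CPM on chow and 142 to 273 CPM on HF/HS. The Kupffer cell marker sum went the other way, from 193 to 399 CPM on chow to 241 to 490 CPM on HF/HS, with 0 of 10 called by edgeR and 2 at an unadjusted p under 0.05, of which 1 was higher and 1, Marco, was lower (12.8 CPM on chow and 5.60 CPM on HF/HS). Means were also higher on HF/HS for 7 of 8 endothelial and 7 of 8 stellate cell markers. The same held for 6 of 6 tested T and NK cell markers (1 called) and 5 of 6 pan-leukocyte markers. In the stellate and pan-leukocyte lists 1 marker each was called lower. The part of these cell types in the fall of the mitotic genes was not tested.

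Of the 4 E2F genes in the control set, E2f1 fell and E2f8 rose on HF/HS in littermate controls, while E2f7 (0.75 ± 0.28) and E2f4 (0.02 ± 0.063) did not pass. E2f1 (chr2:154559407-154569892), the activator of G1/S genes, was at 3.26, 4.17 and 4.45 CPM on chow and 2.30, 2.66 and 3.398 CPM on HF/HS, and fell by 0.56 on the log2 scale (SE 0.10, adjusted p = 0.00214 by edgeR). For E2f1, 6 of the 7 HF/HS mice were below every chow mouse, and the call held in every alternative. E2f8 (chr7:48866429-48881596), a repressor of E2F targets that is linked to hepatocyte polyploidy, was at 7.28, 13.3 and 15.3 CPM on chow and 14.9, 16.7 and 18.9 CPM on HF/HS, and rose 1.35-fold (log2 fold change 0.43 ± 0.12, adjusted p = 0.0326 by edgeR). All 7 HF/HS mice were above the chow median and 6 above every chow mouse. The E2f8 call was lost without any 1 of control chow mice 1, 2 and 6 or of control HF/HS mice 2, 5 and 7, with adjusted p-values of 0.05 to 0.0663, and in 1 fit of all 27 mice (0.0726). Stmn1 (chr4:134468320-134473843), which encodes the microtubule destabilizer stathmin, was at 3.39, 3.74 and 4.81 CPM on chow and 2.13, 2.94 and 3.56 CPM on HF/HS (-0.43 ± 0.12, adjusted p = 0.037 by edgeR). The Stmn1 call was lost without any 1 of control chow mice 1, 2 and 5 to 7 or of control HF/HS mice 1, 2, 6 and 7, with adjusted p-values of 0.0577 to 0.0814, and with the replicate block (0.106). Ccnd1 (0.35 ± 0.23) and Cdkn1a (-0.21 ± 0.36) did not pass in controls. With 1 mouse left out, Ccnd1 ran from 0.12 to 0.48 and Cdkn1a from -0.63 to -0.08.

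In HGFAC-KO mice the HF/HS diet gave 2 called genes of 53 tested (3.77%), against 5.89% of all 13613 genes, with 1 higher (background 3.17%) and 1 lower (background 2.73%). Ccnd1 (chr7:144929931-144939925) was at 34.3, 46.3 and 56.0 CPM on chow and 53.7, 83.7 and 94.97 CPM on HF/HS, and rose by 0.74 on the log2 scale (SE 0.16, adjusted p = 0.015 by edgeR). All 7 HF/HS mice were above the chow median and 5 above every chow mouse, and the call held in every alternative. Mcm2 was at 3.23, 4.25 and 4.76 CPM on chow and 2.54, 2.86 and 3.70 CPM on HF/HS, and fell by 0.47 on the log2 scale (SE 0.12, adjusted p = 0.0271 by edgeR). Of the 7 HF/HS mice, 5 were below every chow mouse. The Mcm2 call was lost without HGFAC-KO chow mouse 2 (adjusted p = 0.0709 by edgeR), HGFAC-KO chow mouse 4 (0.0613), HGFAC-KO HF/HS mouse 6 (0.0553) or HGFAC-KO HF/HS mouse 7 (0.0539).

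The unadjusted calls in HGFAC-KO mice were 11 (5 higher and 6 lower), 20.8% of those tested against 22.4% of all genes (11.4% higher and 10.9% lower). E2f1 was at -0.45 ± 0.14 (adjusted p = 0.0667 by edgeR), and was called without HGFAC-KO HF/HS mouse 4 (0.0327), with DESeq2 (0.0247), in 1 fit of all 27 mice (0.0205) and with the replicate block (0.047). Rrm2 was at 0.51 ± 0.20 (0.137, and 0.0457 in 1 fit of all 27 mice), Pola1 at 0.33 ± 0.11 (0.0945) and Rrm1 at 0.21 ± 0.083 (0.14). The other MCM subunits were at 0.25 ± 0.13 for Mcm5, 0.17 ± 0.12 for Mcm3, 0.03 ± 0.14 for Mcm6, -0.03 ± 0.11 for Mcm4 and -0.03 ± 0.074 for Mcm7, and Pcna was at -0.24 ± 0.096. Mitotic genes had a higher mean on HF/HS for 16 of 24, with a median of 0.15, 0 called by edgeR and 1 unadjusted call (0 to 7 with 1 mouse left out). Without HGFAC-KO chow mouse 4 this was 20 of 25, with a median of 0.35 and 7 unadjusted calls. Without HGFAC-KO HF/HS mouse 2 it was 12 of 22, with a median of 0.0070 and 1 unadjusted call. Mki67 was at 0.34 ± 0.28, Top2a at 0.39 ± 0.35, Cdk1 at -0.06 ± 0.31 and Cdkn1a at 0.40 ± 0.31 (0.27 to 0.74 with 1 mouse left out). Between leaving out HGFAC-KO HF/HS mouse 2 and HGFAC-KO chow mouse 4, Mki67 ran from 0.18 to 0.60, Top2a from 0.10 to 0.72 and Cdk1 from -0.27 to 0.22. The difference in mean mitotic score was 0.23, and it ran from 0.09 without HGFAC-KO HF/HS mouse 2 to 0.39 without HGFAC-KO chow mouse 4, and was 0.25 without both. Over the 6 genes of at least 1 CPM it was 0.0642, and as the log2 of the summed CPM 0.0639, where Ccna2, Ncapg and Kif20a again weigh more. Of the 10 Kupffer cell markers 6 were called higher in this comparison, and of the 6 pan-leukocyte markers 3, while 1 of each list had a lower mean. The Kupffer cell sum ran from 186 to 283 CPM on chow and 258 to 406 CPM on HF/HS. The T and NK cell markers Cd3d and Cd4 and the endothelial marker Stab2 were called higher too. The erythroid marker sum went the other way, from a mean of 282 CPM on chow to 220 CPM on HF/HS, and Tfrc was called lower (40.6 and 23.4 CPM). The part of these cell types in the values of the mitotic genes was not tested.

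**Figure D5:**
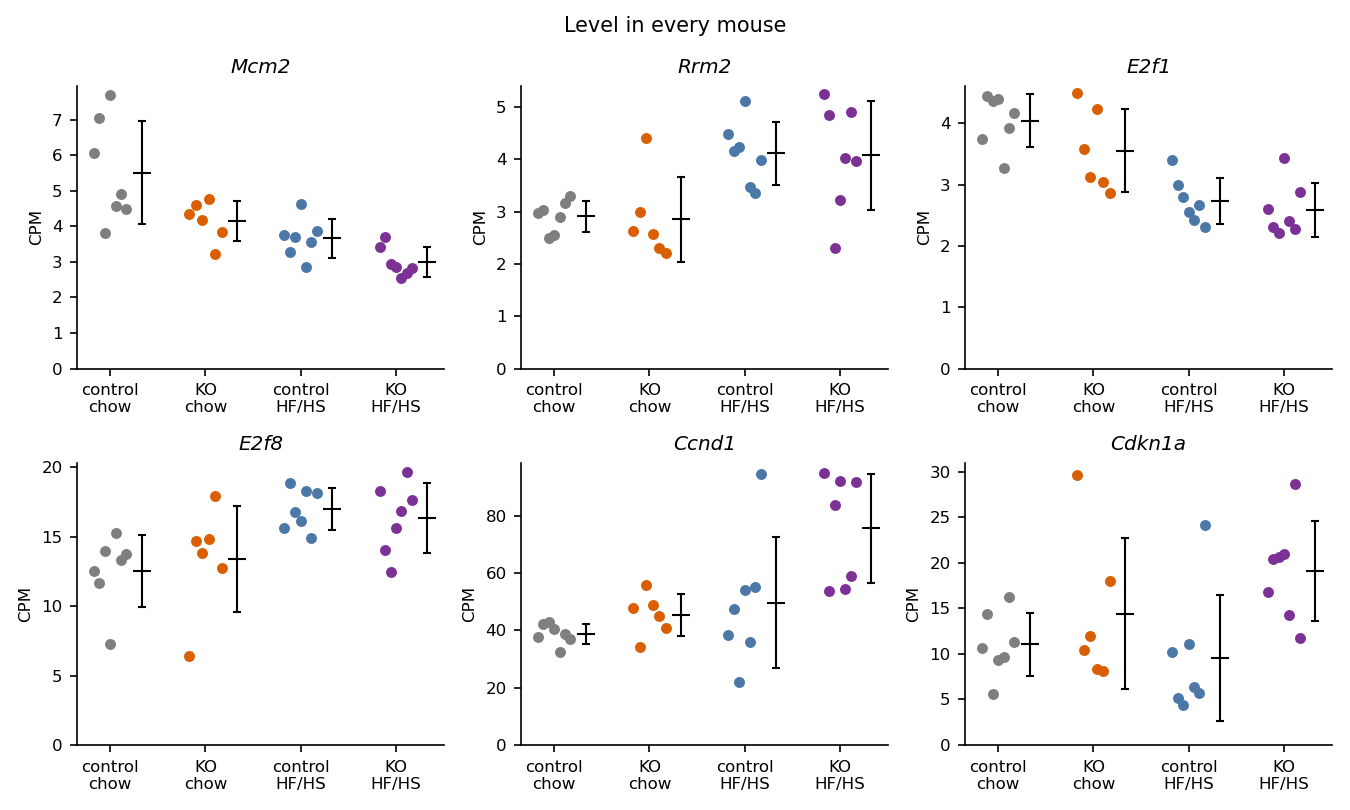
CPM of Mcm2, Rrm2, E2f1, E2f8, Ccnd1 and Cdkn1a in each mouse by group, with 1 point per mouse, the group mean ± SD beside it and axes from 0. Mcm2 and E2f1 are lower on HF/HS and Rrm2 and E2f8 higher in controls, and Ccnd1 has its highest group mean, 75.7 CPM, in HGFAC-KO HF/HS mice.

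Whether genotype acted differently on each diet was asked with an interaction term fitted to all 27 mice. Of 56 genes tested, 0 were called by edgeR, as of all 13932 genes (0.0%), and DESeq2 and limma voom called 0 too. There were 13 unadjusted calls (12 higher and 1 lower), 23.2% of those tested against 3.63% of all genes (1.74% higher and 1.89% lower). Requiring 10 counts in every library left 39 genes with 4 unadjusted calls, and the median of the set went from 0.27 to 0.12. The genotype difference of the mitotic genes was higher on HF/HS than on chow for 26 of 27, with a median difference of log2 fold changes of 0.67, and for the replication genes this held for 12 of 16, with a median of 0.12 that ran from 0.05 without control chow mouse 4 to 0.18 without control HF/HS mouse 4. Racgap1 was at 1.20 ± 0.31 (adjusted p = 0.984 by edgeR), Iqgap3 at 1.77 ± 0.47, Kif23 at 0.88 ± 0.29 and Mki67 at 1.08 ± 0.36. Foxm1 was at 1.00 ± 0.36 and Nasp at -0.30 ± 0.093. The unadjusted calls over the set were 6 without HGFAC-KO HF/HS mouse 2, 20 without control HF/HS mouse 7 and 16 without both HGFAC-KO mice that stood apart, where 25 of 27 mitotic genes were higher with a median of 0.71. This last setting was chosen after the scores were seen. The mitotic median was 0.40 (23 of 27 higher) without HGFAC-KO HF/HS mouse 2 alone and 0.85 without HGFAC-KO chow mouse 4 alone. Some markers of other cell types had interaction values of the same sign, with 10 of 10 Kupffer cell markers higher (median 0.24), 6 of 6 pan-leukocyte markers (median 0.26) and 8 of 8 stellate cell markers (median 0.20), and 0 called by edgeR and 0 at an unadjusted p under 0.05 in each list. Neutrophil markers had the opposite sign for 3 of 3 (median -0.64), hepatocyte markers were higher for 4 of 9 (median -0.15), endothelial markers for 5 of 8 (median 0.05) and cholangiocyte markers for 3 of 7 (median -0.0089). Their part in the interaction was not tested.

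Across the 4 groups, Mcm2 had its highest mean in control chow mice (5.51 ± 1.44 CPM, SD, n = 7), then in HGFAC-KO chow mice (4.15 ± 0.558 CPM, n = 6), control HF/HS mice (3.66 ± 0.545 CPM, n = 7) and HGFAC-KO HF/HS mice (2.99 ± 0.417 CPM, n = 7). Neighbours in this order overlapped in every case. E2f1 stood at 4.04 ± 0.434, 3.55 ± 0.672, 2.74 ± 0.372 and 2.59 ± 0.441 CPM in the same order of groups. Mki67 stood at 1.82 ± 0.592, 1.16 ± 0.558, 1.10 ± 0.233 and 1.46 ± 0.475 CPM, so its highest mean was in control chow mice as well, and all 4 groups overlapped.

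A list of 127 other cell cycle and replication genes was read in the same fits. Between genotypes 0 of 111 tested were called on chow and 0 of 109 on HF/HS by edgeR, with 10 (9.01%, against 5.98% of all genes) and 12 (11.0%, against 9.64%) at an unadjusted p under 0.05. For the interaction, 0 of 114 were called by edgeR, with 8 (7.02%, against 3.63%) at an unadjusted p under 0.05 and a median of 0.06. The smallest p-values on chow were those of Brca2 (-0.34 ± 0.11) and Cdca8 (-0.64 ± 0.23). On HF/HS they were those of Cdkn2c, which encodes the inhibitor p18 (0.65 ± 0.15, adjusted p = 0.331 by edgeR), the replication initiation factor gene Mcm10 (-0.57 ± 0.17) and Ccng1 (0.20 ± 0.066). In controls the diet gave 10 calls of 110 tested (9.09%, against 10.5% of all genes), with 1 higher, Mcm10 (0.73 ± 0.16, adjusted p = 0.0106 by edgeR), and 9 lower. Mcm10 had a mean of 41.3 CPM on chow and 68.8 CPM on HF/HS. Mcm7, the highest of the MCM2-7 subunits, was at 12.1 CPM over all 27 mice. The fallen genes included the centrosome kinase gene Nek2 (-0.90 ± 0.14, adjusted p = 0.000636 by edgeR), E2f3 (-0.42 ± 0.078), the anaphase ubiquitin-conjugating enzyme gene Ube2c (-0.94 ± 0.20), Brca1 (-0.65 ± 0.18), Ccnd3 (-0.27 ± 0.063), the licensing inhibitor gene Gmnn (-0.39 ± 0.10) and Cdkn2c (-0.43 ± 0.12). In HGFAC-KO mice 5 of 110 were called (4.55%, against 5.89% of all genes), all lower, namely the kinetochore gene Spc24 (-0.46 ± 0.083, adjusted p = 0.00439 by edgeR), thymidine kinase gene Tk1 (-0.68 ± 0.14), Gmnn (-0.48 ± 0.12), Pold4 (-0.33 ± 0.082) and Ccnd3 (-0.28 ± 0.072).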

How the data were processed

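The deposited table holds raw read counts per gene and mouse, which the authors made from liver RNA (TRI reagent, stranded mRNA libraries, paired-end reads), with HISAT2 alignment to GRCm38 (mm10) and, per the submitters' processing notes, featureCounts 1.6.3, without normalization. The annotation release and strand setting are not given in the sources used here. All 27 mice were used and grouped by the labelled genotype and diet. Rows with no gene name (3886 of 27179, 4.13% to 12.1% of counts) were left out. Total counts of 36056177 to 57298657 limit the precision of genes under 1 CPM most.

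Counts of all named genes were filtered (filterByExpr, minimum count 10 and total 15), normalized by TMM and tested with edgeR 4.0.16 (R 4.3.3) quasi-likelihood fits with robust dispersions, each comparison on its own 2 groups and the interaction on all mice. Scores and exact permutation tests used log2 CPM with a prior count of 2. Alternatives were DESeq2 1.42.0, limma 3.58.1 voom, other filters and scaling, 1 fit of all mice, a replicate block and leaving out each mouse. The fits were tested on simulated data. The members and lists were chosen with earlier results of these data known. Genes named with full values were those called or, under 6 calls, the 6 with the smallest p, plus Mcm2 to Mcm7 and 6 usual markers of cycling and arrest. A gene of the wider list that the naming rule took is not reported here. Promoters are from RefSeq, and gene positions and exon lengths from GENCODE on GRCm38. Same-numbered mice of 2 groups had correlations of their deviations from -0.25 to 0.37, so numbers were not taken as pairs.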

Additional observations from a re-analysis of the deposited data

Results flagged for a closer look

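A sample far from its group was looked for in the 4 groups of every gene named with full values and in the scores, where a gap between the end mouse and its nearest neighbour that is large beside the whole range of the group (Dixon's 95% limit) marks 1 in 20 groups by chance. Of 120 groups, 12 were so marked, where chance gives about 6. No explanation was weighed for any of them, and the genes of a mouse are not independent.

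HGFAC-KO HF/HS mouse 2 accounted for 5. Its mitotic score was 0.63 (others -0.45 to -0.20), with Top2a at 2.41 CPM (others 0.590 to 1.28), Cdc20 at 1.52 CPM (0.332 to 0.594), Racgap1 at 1.05 CPM (0.473 to 0.597) and Plk1 at 0.790 CPM (0.142 to 0.405). HGFAC-KO chow mouse 4 accounted for 3, with Mcm7 at 13.1 CPM (others 10.7 to 11.6), Cdc20 at 1.71 CPM (0.361 to 0.614) and Plk1 at 0.841 CPM (0.0963 to 0.374). Plk1, which acts at the entry to mitosis, and Cdc20, which acts at anaphase, were thus marked in both mice.

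HGFAC-KO chow mouse 3 had Rrm2 at 4.40 CPM (others 2.20 to 2.99). Control HF/HS mouse 7 had Cdkn1a at 24.2 CPM (others 4.43 to 11.1) and Kif23 at 0.647 CPM (0.331 to 0.429). Control chow mouse 2 had the lowest Foxm1, at 0.320 CPM (others 0.412 to 0.479).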

How the results depend on the processing

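No named value that was called changed sign under any alternative run, and the score differences and median fold changes of the set moved by less than the spread between mice. Yet the mitotic score differences between genotypes on chow and between diets in HGFAC-KO mice shrank by over 1.5 times in 2 settings. These were genes of at least 1 CPM (to -0.17 and 0.0642) and summed CPM (to -0.23 and 0.0639). Both settings give more weight to Ccna2, Ncapg and Kif20a, of uncertain level. The replication score difference between genotypes on HF/HS was -0.19 as the median of the genes (-0.10 as the mean). DESeq2 gave more calls over all genes, 13 (edgeR 1) between genotypes on chow, 55 (edgeR 2) between genotypes on HF/HS and 1401 (edgeR 802) between diets in HGFAC-KO mice. With 1 fit of all 27 mice, 1 gene was called between genotypes on HF/HS, and 5 genes of the set between diets in HGFAC-KO mice, among them E2f1 (adjusted p = 0.0205 by edgeR) and Rrm2 (0.0457). That fit ended the calls of Mki67 (0.0582), E2f8 (0.0726) and Plk1 (0.196) in controls, and limma voom that of Mki67 (0.054). The cause was not tested. With 1 mouse left out at a time, the calls over all genes were 2 to 11 between genotypes on HF/HS (11 without HGFAC-KO HF/HS mouse 5, 5 without control HF/HS mouse 7), 976 to 1780 between diets in controls, and 467 (without HGFAC-KO chow mouse 2) to 950 between diets in HGFAC-KO mice. The calls within the set were 4 to 10 in controls and 1 to 3 in HGFAC-KO mice (1 without HGFAC-KO chow mouse 2 or HGFAC-KO HF/HS mice 6 or 7), where all genes gave 519 calls without both mice of high mitotic score. With the replicate number as a block, the calls over all genes were 1 and 2 between genotypes on chow and HF/HS, 774 (1424 without it) and 602 between diets in controls and HGFAC-KO mice, and 0 for the interaction. The set had 0, 0, 6, 3 and 0 calls in that order, where Racgap1 (0.1), Stmn1 (0.106) and Plk1 (0.0748) lost their call and E2f1 in HGFAC-KO mice gained it (0.047). The numbers were not shown to pair the mice. Few counts limit the 27 genes under 1 CPM, and requiring 10 counts in every library left 39 of the set in the interaction, with 4 unadjusted calls.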
